A study of Mus musculus with 4 samples.

Results

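Genes of prostaglandin synthesis, uptake, breakdown and reception were followed in the mouse colon, in cells of the surface and of the crypts, with and without heme in the diet. The set holds 9 genes picked by name for their roles, and a gene was measured where a probe set of the array carried its symbol and no other. That was the case for 8 of the 9 genes, with 1 probe set each, among 19938 genes measured in all. Ptgs1, encoding the constitutive cyclooxygenase, had no such probe set and is not analysed here. Ptger2 stayed below the floor of 5.75, the median log2 value of all genes over the 4 arrays, so 7 genes could be compared.

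All groups were male C57BL/6 mice, 11 weeks old, that ate feed rich in fat (40% of energy) and poor in calcium for 14 days. The control groups, control surface and control crypt, pooled laser-dissected cells of 4 mice whose feed held no heme. The heme groups, heme surface and heme crypt, pooled those of 3 mice whose feed held heme, the pigment of red meat, at 0.5 µmol/g. Each group is 1 pool on 1 Affymetrix array, and the same mice gave both pools of a diet. There is therefore no replicate and no test, and no difference below has a measured error. Values are log2 expression levels made with RMA, and a difference between 2 arrays was called where it was 2-fold or more (1 in log2 units) with the floor reached on 1 of them or both. This is a rule of size, and the share of all genes past it is given as background. Whether a difference reflects fewer cells of a type in the pool or less RNA per cell cannot be told apart. Because each gene is read by its own probe set, levels are compared between arrays and not between genes.

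Prostaglandins are lipid signals made on demand from arachidonic acid. A phospholipase frees the fatty acid from membranes, a cyclooxygenase turns it into prostaglandin H, and terminal synthases make prostaglandin E or its relatives from that. In the gut, prostaglandin E is known for its part in mucosal defence, wound repair and tumour growth. It acts through EP receptors on the cell surface, and its signal is ended by uptake through a carrier and oxidation inside the cell.

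The labelled compartments matched their markers. Among 10 markers of surface colonocytes, 9 had a level in the surface pool at least 2-fold that in the crypt pool on the control diet, and 9 did on heme. All 9 crypt base and progenitor markers compared on the control diet, and all 8 compared on heme, were at least 2-fold lower in the surface pool. All 8 pan-epithelial markers reached the floor, with median levels between 10.7 and 11.7 on the 4 arrays. All 8 were also higher in the surface pool than in the crypt pool on both diets. On the control diet 4 of 8 were at least 2-fold higher there (median 0.98), and on heme 3 of 8 were (0.82). Of 10 mast cell markers, all but Kit lay below the floor on every array. In the heme crypt pool, 4 of these 10 surface markers were at least 2-fold above their level in the control crypt pool, with a list median of 0.54 on the log2 scale, and the part of this in the crypt values below was not tested. Of 8 endothelial markers, 3 were at least 2-fold higher in the surface pool on the control diet (median 0.54). On heme 4 of 8 were (1.09), and none was lower on either diet. Of 12 fibroblast and smooth muscle markers on the control diet, 1 was higher and 5 lower, and of 11 on heme, 1 and 1. Of all genes compared, 25.5% and 31.8% were past 2-fold. The part of this in the gaps between compartments was not tested.

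The genomic sequence before 3 of the genes is printed because their levels followed 3 different patterns. Ptgs2 was higher in surface cells and higher again there on heme, Slco2a1 was higher in surface cells on both diets, and Pla2g4a was lower in surface cells. The sequences are RefSeq's for GRCm38.p6 and run over the 250 bases before the annotated start on the gene's own strand, with letters that match a searched motif in capitals. They lie at chr1:150099781-150100030 on the + strand (Ptgs2), chr9:103008237-103008486 on the + strand (Slco2a1) and chr1:149961291-149961540 on the - strand (Pla2g4a, the outer of its 2 annotated starts). A further 30 bases at chr1:150100035-150100064, on the + strand just after the start of Ptgs2, hold an E-box.
Ptgs2: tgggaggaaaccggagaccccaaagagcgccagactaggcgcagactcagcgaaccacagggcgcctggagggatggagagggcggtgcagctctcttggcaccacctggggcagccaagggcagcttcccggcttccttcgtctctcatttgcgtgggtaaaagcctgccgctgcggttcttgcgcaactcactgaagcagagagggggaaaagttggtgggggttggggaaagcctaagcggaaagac
Ptgs2, after the start: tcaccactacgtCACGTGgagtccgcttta
Slco2a1: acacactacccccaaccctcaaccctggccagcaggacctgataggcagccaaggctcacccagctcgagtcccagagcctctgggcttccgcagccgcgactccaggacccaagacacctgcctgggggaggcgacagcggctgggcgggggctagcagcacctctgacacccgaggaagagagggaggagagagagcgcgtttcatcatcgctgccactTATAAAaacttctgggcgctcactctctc
Pla2g4a: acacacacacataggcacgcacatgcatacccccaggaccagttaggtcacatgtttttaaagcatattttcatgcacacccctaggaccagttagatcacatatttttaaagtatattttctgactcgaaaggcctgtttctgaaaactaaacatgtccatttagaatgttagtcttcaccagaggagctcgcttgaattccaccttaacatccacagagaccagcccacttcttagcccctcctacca

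Windows of 300 bases, from 250 before to 50 after the start, were searched on both strands for 5 motifs, and the 9 genes had 10 such windows. The E-box CACGTG was found at positions 17 to 22 of Ptgs2, counting its first base as 1 and the base before it as -1, and at -77 to -72 of Ptges2. It occurs in 7.15% of all 32851 promoter windows. The TATA box TATAAA was found at -29 to -24 of Slco2a1, at 5 to 10 of Hpgd and, on the opposite strand, at -200 to -195 from the inner start of Pla2g4a. It occurs in 13.6% of windows. The cyclic AMP response element TGACGTCA (1.79% of windows), the AP-1 element TGANTCA (7.81%) and the antioxidant response element core TGACNNNGC (12.4%) matched none of the 10 windows. Only these letters were searched, with N as any base, so variant forms of an element were not looked for and may be present. None of the matches overlapped another motif's match. A match is only a run of letters, and any part of it in the levels was not tested.

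**Figure D1:**
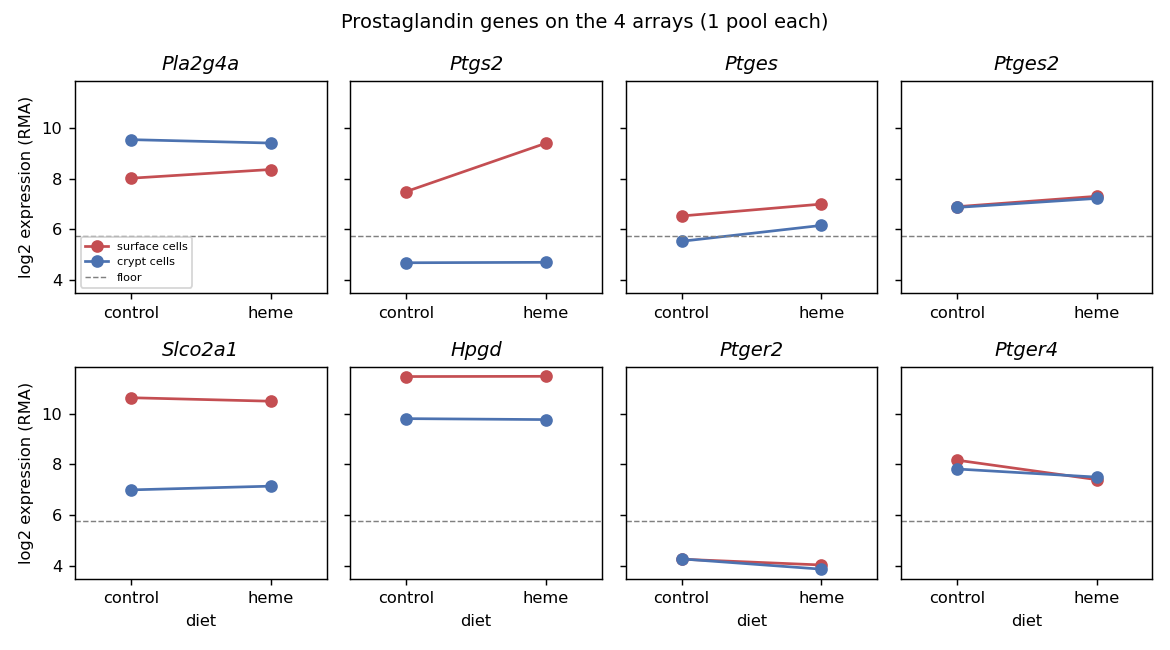
Log2 expression (RMA) of the 8 measured genes in control and heme pools, with surface cells in red, crypt cells in blue and the floor of 5.75 as a dashed line; each point is 1 array and lines join the diets. Ptgs2 in surface cells goes from 7.50 to 9.41, while Slco2a1 and Hpgd keep a gap between surface and crypt on both diets.

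Surface and crypt cells differed in most of these genes before heme is considered. On the control diet, 5 of the 7 genes compared were past 2-fold, with Ptgs2, Ptges, Hpgd and Slco2a1 higher in surface cells and Pla2g4a lower, against a background of 25.5% of 10864 genes. On the heme diet 4 of 7 were, without Ptges, against 31.8% of 10698 genes. The 7 genes had a median difference of 1.00 (control diet) and 0.84 (heme), beside -0.05 over all genes compared on either diet. The 8 pan-epithelial markers had like medians, 0.98 and 0.82, so a gap of this size was not particular to the prostaglandin genes. The comparison on the control diet and that on heme share no array with each other, but each shares its arrays with the heme comparisons.

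Pla2g4a (probe set 10358434), encoding the cytosolic phospholipase that releases arachidonic acid, had log2 levels of 8.02 in control surface, 9.55 in control crypt, 8.37 in heme surface and 9.42 in heme crypt cells. Both crypt pools were above both surface pools. The surface level was lower than the crypt level by 2.88-fold on the control diet (-1.53 on the log2 scale) and by 2.07-fold on heme (-1.05). The difference on heme lay just past the rule and ended short of it after median centring (-0.89), after adding 32 to the linear values (-0.98) and after centring on ribosomal protein genes (-0.10). With that last centring the control difference was -0.55. Pla2g4a is the protein-coding gene next to Ptgs2 on chromosome 1, and among the 7 genes it alone was called lower in surface cells.

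Ptgs2 (probe set 10350516) encodes the inducible cyclooxygenase, the enzyme blocked by coxib drugs. Its log2 level was 7.50 in control surface, 4.68 in control crypt, 9.41 in heme surface and 4.70 in heme crypt cells. Both crypt values lay below the floor and were nearly the same, both surface values lay above it, and the heme surface pool was the highest. The surface level was 7.05-fold the crypt level on the control diet (2.82 on the log2 scale) and 26.2-fold on heme (4.71), which was rank 9 from the top among the 10698 genes compared on that diet. Because the crypt values were low, both sizes are uncertain, and after adding 32 to the linear values they were 1.88 and 3.62.

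The terminal synthases showed smaller gaps. Ptges (probe set 10481518), the microsomal synthase that is often induced together with Ptgs2, had log2 levels of 6.53 in control surface, 5.53 in control crypt, 7.00 in heme surface and 6.16 in heme crypt cells. The control crypt pool alone lay below the floor, and each surface pool was above its crypt pool. The difference was 1.00 on the control diet, just at the rule, and 0.84 on heme, and the first was 0.67 after adding 32 to the linear values. Ptges2 (probe set 10471411), a synthase known as a second, constitutive form, had levels of 6.90, 6.87, 7.31 and 7.23 in the same order of arrays. Its surface and crypt levels were close, with differences of 0.03 on the control diet and 0.08 on heme, and the heme pools were slightly above the control pools.

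The genes that end the signal had wide gaps between compartments and differed little between diets. Slco2a1 (probe set 10588263), encoding the carrier that takes prostaglandins up into cells, had log2 levels of 10.64 in control surface, 7.00 in control crypt, 10.50 in heme surface and 7.14 in heme crypt cells. The surface pools were far above the crypt pools on both diets, by 12.5-fold on the control diet (3.65) and 10.3-fold on heme (3.36). These placed it at rank 68 from the top of 10864 genes and rank 111 of 10698. Hpgd (probe set 10571840), encoding the dehydrogenase that oxidises and inactivates prostaglandins after uptake, had levels of 11.48, 9.81, 11.49 and 9.78 in the same order. Its surface level was 3.17-fold the crypt level on the control diet (1.66) and 3.28-fold on heme (1.71).

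The measured EP receptors showed no gap between compartments past the rule. Ptger4 (probe set 10427461), encoding the EP4 receptor, had log2 levels of 8.17 in control surface, 7.82 in control crypt, 7.40 in heme surface and 7.50 in heme crypt cells. The control surface pool was the highest and the heme surface pool the lowest. Surface and crypt differed by 0.35 on the control diet and -0.10 on heme. Ptger2 (probe set 10414271), encoding the EP2 receptor, was between 3.86 and 4.26 on the 4 arrays, so no difference was read from it.

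**Figure D2:**
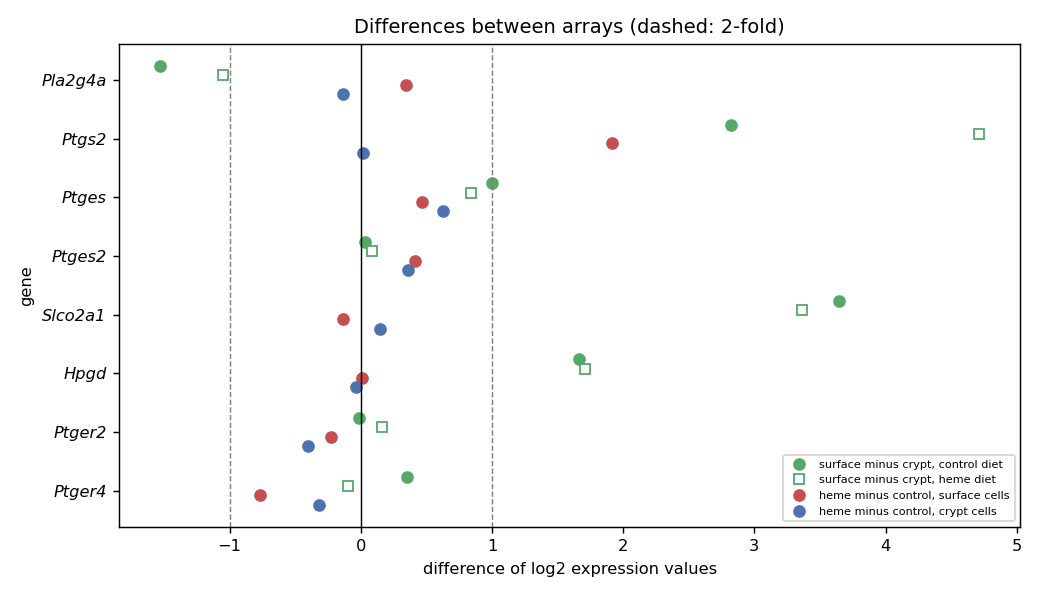
Differences of log2 values for the 8 measured genes, with surface minus crypt in green (filled circles on the control diet, open squares on heme), heme minus control in surface cells in red and in crypt cells in blue; dashed lines mark 2-fold. The green points of Ptgs2, Slco2a1 and Hpgd lie right of the 2-fold line, those of Pla2g4a lie left of it, and among the heme differences only the red point of Ptgs2 lies past a 2-fold line.

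The gap between compartments depends on the scale. Ribosomal protein genes had median levels of 9.50 and 9.49 in the surface pools and 10.76 and 10.63 in the crypt pools, and centring on them moved the median surface minus crypt difference of all genes to 0.99 on the control diet and 0.95 on heme. Relative to that shift the order of the genes was unchanged. Ptges2 (1.01 on the control diet and 1.03 on heme), Ptger4 on the control diet (1.33) and Ptges on heme (1.79) passed the rule. Pla2g4a did not. Of all genes, 5714 were then higher in surface cells and 225 lower on the control diet, and 5429 and 439 on heme. On the deposited scale these counts were 1301 and 1464 on the control diet, and 1637 and 1763 on heme. Ptgs2, Hpgd and Slco2a1 were higher in surface cells by at least 2-fold under the deposited scale and each of the 5 alternatives computed for single genes. Among these, the highest probe set only repeats the deposited values, because each gene has 1 probe set.

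The study asked what dietary heme does to the epithelium. In surface cells, Ptgs2 alone of the 7 genes was past 2-fold on heme, where 5.63% of 10282 genes were. From 7.50 to 9.41 its level was 3.77-fold higher (1.91 on the log2 scale), which was rank 91 from the top. The difference was between 1.75 and 2.02 under the alternative scalings. The gene also passed a 3-fold rule, by which 141 of all genes compared were higher and 55 lower. Ptges (0.47), Ptges2 (0.41) and Pla2g4a (0.34) were slightly higher on heme, and Hpgd (0.01) and Slco2a1 (-0.14) nearly level. Ptger4 had the lowest difference of the 7 genes, -0.77 or 1.71-fold lower, at rank 397 from the bottom. The median of the 7 genes was 0.34, beside -0.02 over all genes compared.

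In crypt cells, 6 of the genes could be compared and none was past 2-fold, where 2.97% of 10491 genes were. Ptgs2 was below the floor in both crypt pools, so its difference of 0.02 says only that it stayed low. Ptges had the largest difference, 0.63 or 1.54-fold higher, from a control value below the floor. It was followed by Ptges2 (0.36) and Slco2a1 (0.15), while Hpgd (-0.04), Pla2g4a (-0.13) and Ptger4 (-0.32) lay below 0. The median of the 6 genes was 0.05, beside 0.01 over all genes compared. The synthase genes Ptges and Ptges2 were thus slightly higher on heme in both compartments, and Ptger4 lower in both, all within 2-fold.

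**Figure D3:**
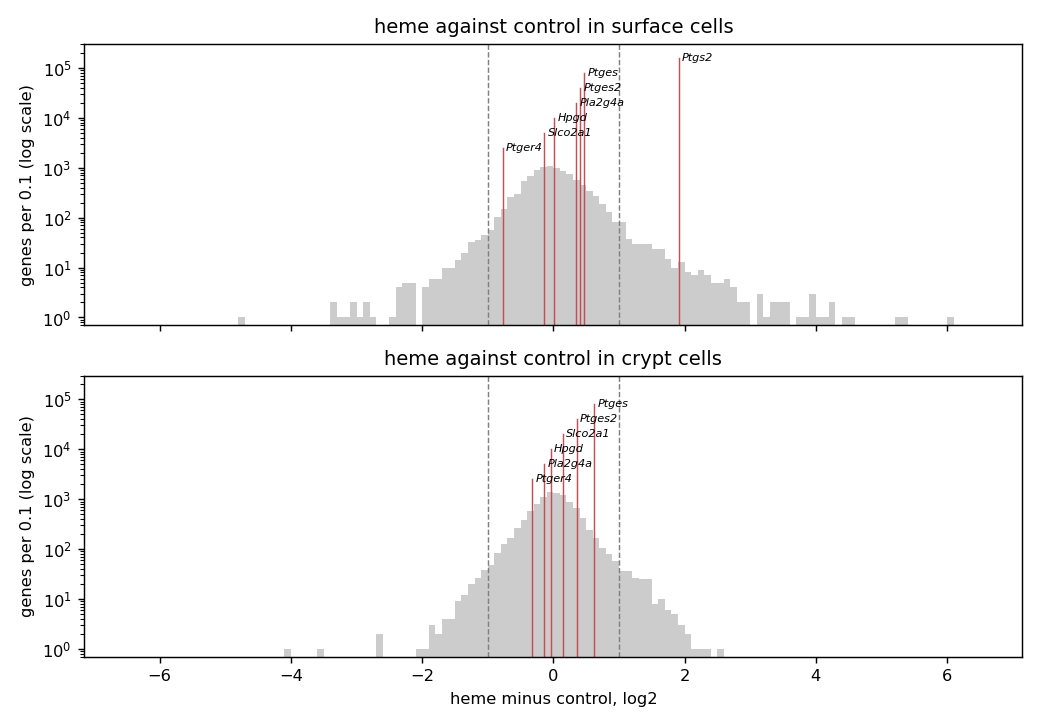
Grey bars count all genes compared per 0.1 of the heme minus control difference (log2), on a logarithmic count axis, for surface cells (top) and crypt cells (bottom); red lines mark the prostaglandin genes, their heights serve only to separate the names, and dashed lines mark 2-fold. Ptgs2 at 1.91 lies in the upper tail of the surface plot, and the other genes lie inside 2-fold in both plots.

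Between the compartments, the heme difference of surface cells exceeded that of crypt cells by 1.90 for Ptgs2, past the rule that 5.46% of 11147 genes met, and between 1.74 and 1.94 under the alternatives. Its crypt term comes from values below the floor. The next were Pla2g4a (0.48) and Ptger4 (-0.45), and the remaining genes compared lay between -0.29 and 0.05.

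Markers of other cells that can express Ptgs2 were read in the same pools. None of 9 macrophage and leukocyte markers compared was past 2-fold between the surface pools, with a median of 0.10, and their summed level was 10.70 in control surface and 10.74 in heme surface cells on the log2 scale. After median centring 1 of 10 was higher. None of 11 fibroblast and smooth muscle markers was past 2-fold either, with a median of -0.60 and summed levels of 12.20 and 11.92, nor any of 8 endothelial markers (median 0.08; 10.49 and 10.50). Of 6 tuft cell markers compared, 3 were lower in heme surface cells, namely Dclk1 (-1.34), Trpm5 (-1.17) and Sh2d6 (-1.07), named after their values were seen, and the median was -0.76. Of the 9 leukocyte markers, 5 were above 0 between the surface pools and the others below. In the crypt pools the medians on heme were -0.63 for the leukocyte, -0.72 for the fibroblast and smooth muscle and -0.68 for the endothelial list. The heme difference of surface cells exceeded that of crypt cells by at least 2-fold for 3 of 9 leukocyte markers (median 0.36). It did for 1 of 12 fibroblast and smooth muscle (0.41) and 1 of 8 endothelial markers (0.71). None was past 2-fold the other way, and 5.46% of 11147 genes were past it either way. The part of these differences in the prostaglandin values was not tested.

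The other genes of the pathway were read from lists chosen by role. Of 5 breakdown and transport genes, 3 were at least 2-fold higher in heme surface cells, none was lower and the median was 1.04. Of all 10282 genes compared there, 5.63% were past 2-fold, 372 of them higher and 207 lower (468 and 158 after median centring), with a median of -0.02. Ptgr1, encoding a reductase that acts after Hpgd, was at 6.01 in control surface and 10.21 in heme surface cells (4.20), and at 7.96 and 8.50 in the crypt pools (0.53). Abcc4, encoding an exporter that carries prostaglandins out of cells, was at 7.17 and 11.10 in the surface pools (3.93) and at 7.83 and 8.75 in the crypt pools (0.93). Thus the exporter and the reductase were higher on heme in surface cells while the uptake carrier gene Slco2a1 and Hpgd were level. Cbr1, encoding a carbonyl reductase that can act on prostaglandin E, was higher by 1.04 in surface and 0.92 in crypt cells, and the surface difference ended short of 2-fold with cyclic loess scaling. In crypt cells none of the 5 was past 2-fold on the deposited scale, and Abcc4 was after centring on ribosomal protein genes.

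Of 13 genes of arachidonic acid supply compared in heme surface cells, 6 were at least 2-fold higher, none was lower and the median was 0.81, beside the same 5.63% and -0.02 over all genes. Named after their values were seen, these were the phospholipase genes Pla2g5 (1.54), Pla2g4f (1.11) and Pla2g15 (1.03), the acyltransferase gene Lpcat3 (1.41), the acyl-CoA synthetase gene Acsl4 (1.21) and Anxa1 (1.02), encoding annexin A1, which is known as an inhibitor of phospholipase A2 rather than a supplier. After adding 32 to the linear values, 3 of them were past 2-fold, and none was past 3-fold. In crypt cells the median of 12 was 0.26 and none was past 2-fold on the deposited scale, but Pla2g5 (0.95) was after median centring, cyclic loess or centring on ribosomal protein genes. Mgll, encoding the lipase that releases arachidonic acid from an endocannabinoid, was higher in surface than in crypt cells by 2.49 on the control diet and 3.25 on heme, and Pla2g4f by 2.43 and 3.83. The crypt values of both lay below the floor. Of 14 genes of the list compared on the control diet, 3 passed the rule toward surface cells and 4 toward crypt cells (median -0.11). On heme the counts were 5 and 5 of 14 (0.29). Pla2g5 leaned toward crypt cells, with surface minus crypt differences of -1.60 on the control diet and -1.01 on heme. Its control surface value of 5.38 lay below the floor, and the heme difference ended short of 2-fold after median centring.

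The remaining synthases and receptors moved less. None of 5 other prostanoid synthase genes compared was past 2-fold on heme in surface cells, and none of 3 in crypt cells. Among them Ptges3, a co-chaperone and cytosolic synthase gene, differed by 0.59 in surface and 0.46 in crypt cells, and Hpgds, the prostaglandin D synthase gene that is also a tuft cell marker, by -0.45 and -0.49. Tbxas1, the thromboxane synthase gene, was near the floor, between 4.89 and 5.91. Of 7 other prostanoid receptor genes, 3 reached the floor on at least 1 array, namely Ptger1, Ptger3 and Tbxa2r, with highest values of 5.83, 5.90 and 5.76.

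**Figure D4:**
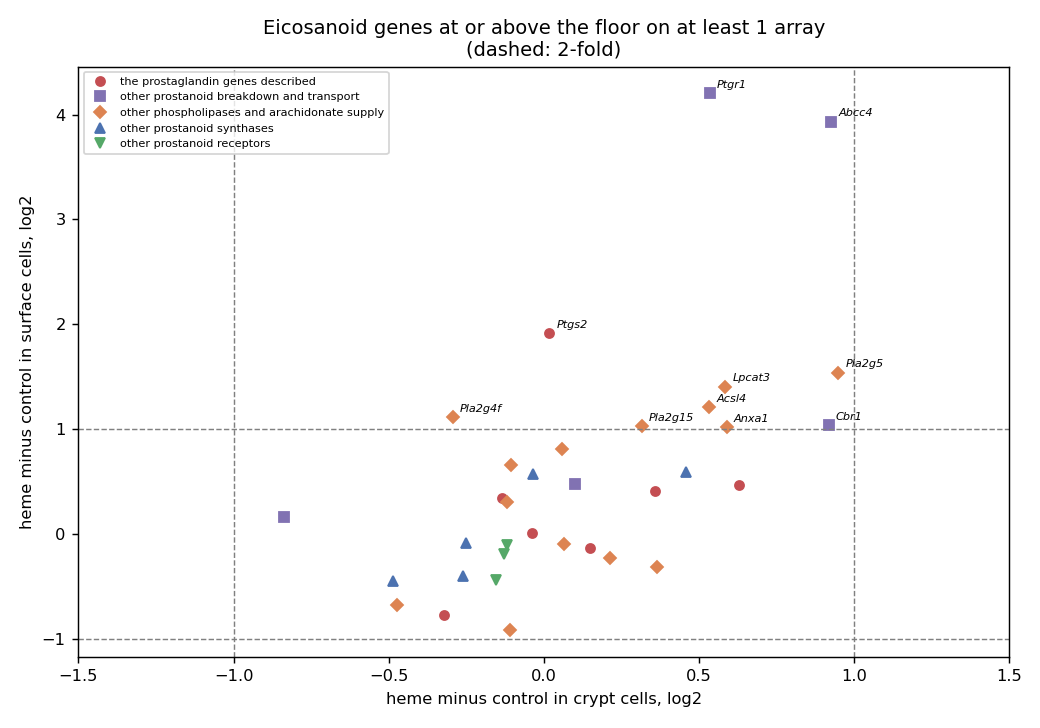
Heme minus control difference (log2) in crypt cells (horizontal) and surface cells (vertical) for the prostaglandin genes and the other pathway genes at or above the floor on at least 1 array; each symbol is 1 gene, shaped and coloured by list, and dashed lines mark 2-fold. Ptgr1 (4.20) and Abcc4 (3.93) lie highest, Ptgs2 (1.91) follows, and on the deposited scale shown no gene passes 2-fold in crypt cells.

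For 5 of the genes the 4 levels spanned at least 1 on the log2 scale, and the genes with the most similar pattern were sought among 10688 named genes. Likeness was the Euclidean distance over the 4 arrays after subtracting each gene's mean, so it rests on 4 points with no replicate. Nearest to Ptgs2 was Scnn1g, a subunit gene of the epithelial sodium channel, at 7.18 in control surface, 4.20 in control crypt, 8.87 in heme surface and 4.61 in heme crypt cells (distance 0.35). It was followed at 0.73 each by Sprr1a, encoding a cornified envelope protein, and the sulfotransferase gene Sult2b1. The nearest genes to Ptgs2 lay farther from it than those of the other genes, which lay within 0.21. Distances were not scaled by span, and Ptgs2 had the widest span of the 5 genes (4.73). They therefore do not tell whether its pattern was more distinct. Hpgd was nearest to Prmt2 (0.04), Chmp2b (0.05) and the brush border myosin gene Myo7b (0.07), Slco2a1 to Stk10 (0.11), Myo15b (0.16) and Ccng2 (0.21), Ptges to Bcl10 (0.07), Letm1 (0.08) and Slc25a13 (0.14), and Pla2g4a to Rab3d (0.09), Fxyd3 (0.09) and Atxn10 (0.11).

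**Figure D5:**
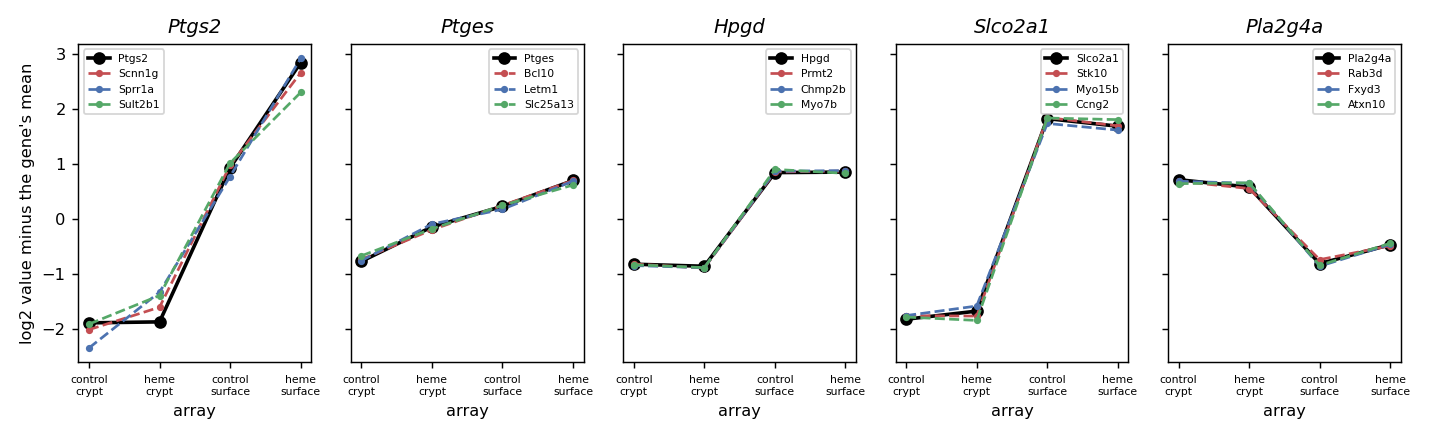
Log2 value minus the gene's mean over the 4 arrays for 5 prostaglandin genes (black) and the 3 genes nearest to each (colours); each point is 1 array, and lines only join the points of a gene. Ptgs2 and its neighbours are highest in heme surface cells, Hpgd, Slco2a1 and theirs are at like levels in both surface pools, and Pla2g4a and its neighbours are highest in the crypt pools.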

How the data were processed

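The authors deposited log2 expression values per probe set for 4 arrays, which they computed by RMA according to the submitters' processing notes. Neither its version nor which arrays were normalized jointly is given in the sources used here. RNA of each group was pooled and 100 ng labelled per array, per the labels' protocols. Of 35556 probe sets, 21789 had 1 gene symbol in the platform annotation, 1621 several and 12146 none listed. Symbols were updated through gene identifiers to the GRCm38.p6 table, and probe sets of a gene averaged. Comparisons are differences of log2 values, called at 2-fold (1 on the log2 scale) with a floor of 5.75. With 1 array per group no test was made and precision is limited by that number.

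The genes, lists and rules were chosen with earlier results of these data known. All 9 genes are named, with up to 3 genes of each further pathway list by largest span, and the 3 genes nearest in pattern to each gene that spans at least 1, leaving out predicted, microRNA, small nucleolar, olfactory and vomeronasal genes. The 6 genes of the arachidonic acid supply list and 3 tuft cell markers called in heme surface cells are named besides. Alternatives were centring on ribosomal protein genes or the median, cyclic loess, adding 32 to the linear values, no floor, a floor of 6.75, the highest probe set, and 1.5-fold and 3-fold rules. Work was done in Python 3.11.15 with numpy 2.4.6, pandas 2.3.3 and matplotlib 3.10.9, and in limma 3.58.1 under R 4.3.3.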

Additional observations from a re-analysis of the deposited data

Results flagged for a closer look

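The heme minus control difference had opposite signs in surface and crypt cells for 3 genes, all within 2-fold in both. Pla2g4a differed by 0.34 in surface and -0.13 in crypt cells (0.48 between them), Slco2a1 by -0.14 and 0.15 (-0.29), and Hpgd by 0.01 and -0.04 (0.047). With 1 array per group these differences between compartments were not tested.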

How the results depend on the processing

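No paired analysis was possible because each group has 1 array. Of 200 recomputed differences of single genes, 179 kept their side of the size rule and moved by less than 1.5-fold, and no called difference changed sign. Of the 21 others, 16 came from centring on ribosomal protein genes, 4 from adding 32 to the linear values and 1 from median centring. Cyclic loess moved none. The highest probe set gave 40 of the differences that stayed the same, and it could move none because each gene has 1 probe set. With a 1.5-fold rule, 2 genes were called for heme in surface cells (Ptgs2 and Ptger4) and 1 in crypt cells (Ptges). Of all 10282 genes compared in surface cells, 1084 were then higher and 814 lower. In crypt cells 618 and 587 of 10491 were. With a 3-fold rule, 3 genes were called between surface and crypt on the control diet (Ptgs2, Hpgd and Slco2a1). Of all 10864 genes compared there, 660 were then higher and 528 lower. The other counts of called genes stayed within 1.5 times. Low signal limits Ptgs2 in crypt cells and Ptger2 on all 4 arrays.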

Other observations

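Genes of the related leukotriene and lipoxygenase branch were mostly low in these pools, with 4 of 12 measured at the floor on at least 1 array. Ephx2, encoding the soluble epoxide hydrolase that degrades epoxides of arachidonic acid, was at 7.65 in control surface, 6.46 in control crypt, 8.76 in heme surface and 6.15 in heme crypt cells. It was higher on heme in surface cells (1.10) and not in crypt cells (-0.31), and the surface difference ended short of 2-fold after adding 32 to the linear values. Ephx2 was the 1 gene past 2-fold of 4 compared between the surface pools, where 5.63% of 10282 genes were. Alox5, encoding the 5-lipoxygenase, differed on heme by -0.90 in surface and -0.59 in crypt cells, and Alox5ap, its activating protein and also a tuft cell marker, by -0.40 and -0.55, all within 2-fold.

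Of 6 genes compared that carry or answer the cyclic AMP signal of EP receptors, Nr4a1, an immediate early nuclear receptor gene, was higher on heme in surface cells, at 6.03 and 7.46 (1.43), while the crypt pools were at 6.54 and 6.53. Adcy6, an adenylyl cyclase gene, differed by -0.88 in surface and -0.47 in crypt cells, and Pde4d, a phosphodiesterase gene, by -0.78 and -0.79. The list median was 0.15 in surface and 0.02 in crypt cells.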
